A study of Homo sapiens with 6 samples.

Results

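The genes described here encode the proteins of the cytosolic ribosome in MDA-MB-231 cells, a human breast cancer cell line with mesenchymal features derived from a metastatic site. They were chosen by name as the protein-coding genes with an RPL, RPLP, RPS or RPSA symbol, leaving out the RPS6K kinases, and 83 of the 46427 genes in the deposited table met this rule. Of these, 31 encode proteins of the small (40S) subunit, 43 encode proteins of the large (60S) subunit, 3 encode the 60S stalk (RPLP0, RPLP1 and RPLP2), and 6 are paralogs of a 60S gene (RPL3L, RPL7L1, RPL10L, RPL22L1, RPL26L1 and RPL39L). RPL36AL, RPS27L and FAU also encode ribosomal proteins or fusions that contain one, but their names fall outside the rule, and they are given separately.

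RNA was sequenced from 6 preparations of these cells, all labelled wild type. In 3 of them the cells received a control-siRNA and in the other 3 a TAZ-siRNA, which is a reagent against WWTR1, the gene of the transcriptional coactivator TAZ, delivered with the lipid DharmaFECT4. TAZ works downstream of the Hippo pathway together with the related protein YAP, and the comparison asks which genes change when its messenger RNA is lowered. The labels of the sequenced cells give neither the dose of siRNA nor the time after transfection. All 6 come from 1 cell line, and only 1 knockdown reagent was sequenced. The libraries numbered 1 to 3 in each group carry these numbers in the columns of values, whereas the sample titles count the same replicates from 3 to 5.

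A ribosome carries a single copy of nearly every ribosomal protein, so the cell makes these proteins in similar amounts. Their messenger RNAs are short, abundant and long-lived, and most begin with a cytosine followed by a run of pyrimidines, the 5′ terminal oligopyrimidine (TOP) motif. TOP messenger RNAs are translated or held back as a class, under the control of the kinase complex mTORC1 and of proteins such as LARP1 that bind their 5′ end. Transcription of ribosomal protein genes in growing cells also responds to MYC. RNA sequencing measures the messenger RNA and not the translation that the TOP motif controls.

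The start sites carried this feature. RefSeq promoter windows for GRCh38.p14, each 250 bases before and 50 bases after an annotated start, were matched to 66 of the 83 genes. Runs of at least 7 C or T letters that begin with C were searched for within 5 bases of an annotated start. The strand read was the one with the same sense as the RNA. Such a run was present in 50 of the 66 genes (75.8%), against 1644 of 15449 other protein-coding genes (10.6%). The 30 bases around the start, 15 on each side, are printed in lower case with the run in capitals. RPL22L1, RPS9, RPL24, RPLP0 and RPS10 are shown because they fell with TAZ-siRNA, RPL22 because it is the parent of RPL22L1, and RPS25 and RPLP2 because they were among the genes that differed least. RPL3 and RPL17 also fell and have no such run at their annotated start.

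RPL22L1 (chr3:170870181-170870210, minus strand): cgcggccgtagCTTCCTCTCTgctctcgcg
RPS9 (chr19:54200843-54200872, plus strand): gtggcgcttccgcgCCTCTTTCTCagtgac
RPL24 (chr3:101686704-101686733, minus strand): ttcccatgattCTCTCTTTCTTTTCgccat
RPLP0 (chr12:120201097-120201126, minus strand): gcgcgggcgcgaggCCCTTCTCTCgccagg
RPS10 (chr6:34426055-34426084, minus strand): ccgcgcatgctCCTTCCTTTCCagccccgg
RPL22 (chr1:6199581-6199610, minus strand): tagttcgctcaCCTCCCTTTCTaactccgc
RPS25 (chr11:119018329-119018358, minus strand): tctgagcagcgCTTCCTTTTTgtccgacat
RPLP2 (chr11:809952-809981, plus strand): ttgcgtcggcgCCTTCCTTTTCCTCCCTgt
RPL3 (chr22:39319609-39319638, minus strand): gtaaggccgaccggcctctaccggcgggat
RPL17 (chr18:49492451-49492480, minus strand): cctctttccctaagcagcctgaggtgagtg

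Genes with and without the run were both among those that fell. Of the genes with a window that passed the filter on low counts, the 50 with the run had a median log2 fold change of -0.17, and 9 were called lower. The 15 without it had a median of -0.17, and 3 were called lower, with no test of the difference. Of all genes tested, 10.2% were called lower in the same fit (edgeR adjusted p under 0.05). Other letters were searched for on both strands of the same windows. The letters CTTCCG, which overlap some of the pyrimidine runs, were found in 62.1% of ribosomal protein genes and 30% of other protein-coding genes, and TATAAA in 10.6% and 12.4%. These matches describe the letters of the windows and not sites that a factor was seen to bind.

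The knockdown was visible in every library. WWTR1 was measured at 192.4, 189.7 and 190 CPM (gene counts per library size, scaled by edgeR's TMM factors) with control-siRNA and at 17.32, 17.03 and 15.09 CPM with TAZ-siRNA, a log2 fold change of -3.53 ± 0.061 (SE, n = 3 per group; edgeR adjusted p = 2.47e-10). Total counts ran from 48307548 to 71749634 per library. The mesenchymal markers VIM, CD44 and AXL were at 357.9 CPM or more in each library, whereas the epithelial genes CDH1 and EPCAM stayed at 1.59 CPM or less and the hormone receptor genes ESR1 and PGR had at most 6 counts. One library stood apart for the ribosomal protein genes: TAZ-siRNA replicate 3 was the highest of its group for all 81 genes tested, and results that rest on it are given with and without it.

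Ribosomal protein messenger RNA was slightly lower with TAZ-siRNA, and no member was higher. Of the 83 genes, 81 passed the filter on low counts, and each of the 81 had a log2 fold change below 0, from -0.50 for RPL22L1 to -0.042 for RPL13, with a median of -0.17 against -0.0054 for all 16966 genes tested. By the quasi-likelihood test of edgeR, with p-values adjusted over all genes tested by the Benjamini-Hochberg method, 14 members (17.3%) were lower at an adjusted p under 0.05, where 10.2% of all genes tested were called lower. None was called higher, against 11.9% of all genes, and 0 had an unadjusted p under 0.05 in that direction, while 42 did so in the direction of lower values. Of all 16966 genes, 6069 had an unadjusted edgeR p under 0.05 in either direction, and 3122 of these were higher. DESeq2 called 28 members lower, where it called 11% of all genes lower, and 0 higher. Called in either direction were 17.3% of the members and 22.1% of all genes. The changes were small. The median standard error of a member was 0.077 on the log2 scale, and the 3 TAZ-siRNA values lay below all 3 control-siRNA values in 21 of the 81 members, where 19.6% of all genes did so.

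**Figure D1:**
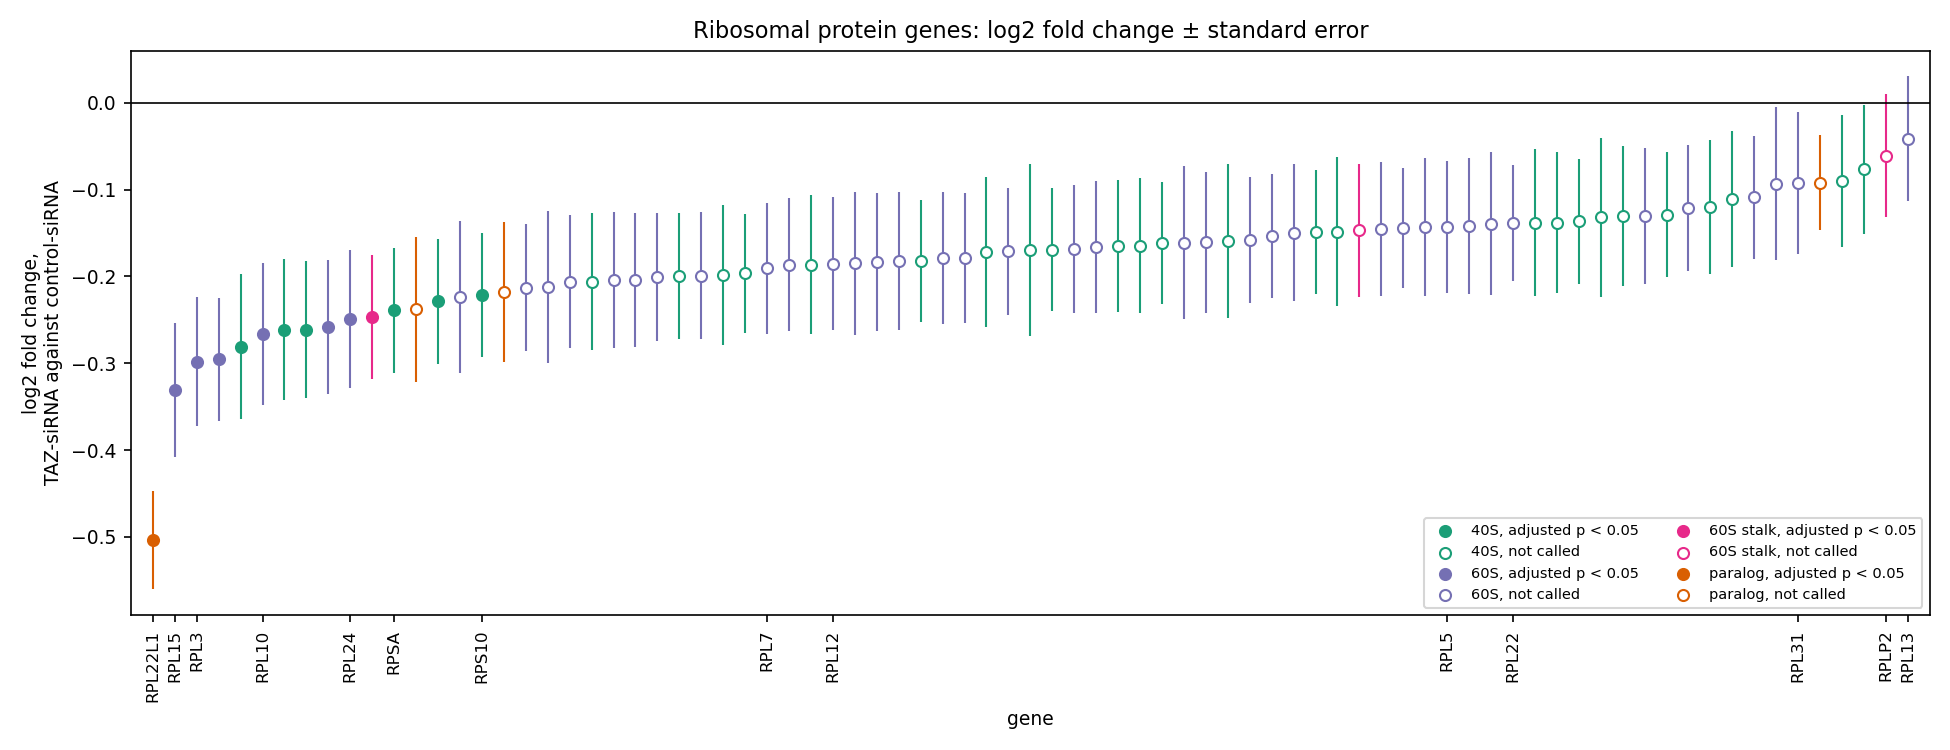
Log2 fold change (TAZ-siRNA against control-siRNA, vertical axis) with its standard error for each of the 81 ribosomal protein genes tested (horizontal axis, ordered by the change, with some of the genes named); colours give the class and filled points the 14 genes with an edgeR adjusted p under 0.05. All points lie below 0, RPL22L1 lies apart at -0.50 and most others lie close together around the median of -0.17.

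The count of called members depended on TAZ-siRNA replicate 3. Relative to the mean of the 6 libraries, the median ribosomal protein gene stood at 0.027, 0.067 and 0.17 on the log2 scale in control-siRNA libraries 1 to 3, and at -0.18, -0.14 and 0.069 in TAZ-siRNA libraries 1 to 3. TAZ-siRNA 1 and 2 were each below every control library in all 81 genes. TAZ-siRNA 3 was below every control library in 21 genes, above at least 1 of them in 60 and above all 3 in 5. Without this library 78 of the 81 genes were called lower, with a median of -0.25, where 16.1% of all genes were called lower, and the 14 genes were all among the 78. The 3 genes not called in that fit were RPL13, RPLP2 and RPL7L1. Leaving out any other library instead left 1 to 5 genes called, with medians between -0.12 and -0.20. In these fits 4.84 to 6.72% of all genes tested were called lower. The libraries left in a group of 2 are assumed to vary like the others.

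As a share of all gene counts, the 83 genes held 5.82, 5.99 and 6.31% with control-siRNA and 5.11, 5.26 and 5.87% with TAZ-siRNA. The means were 6.04% ± 0.251 and 5.42% ± 0.401 (SD, n = 3), a difference of -0.625 percentage points that left 89.65% of the control share. The groups overlapped, because TAZ-siRNA 3 lay above control-siRNA 1. Without TAZ-siRNA 3 the difference was -0.853 points. In TPM, where each gene is scaled by transcript length, the genes made up 14.9% ± 0.456 of the total with control-siRNA and 13.7% ± 0.666 with TAZ-siRNA. In these bulk libraries a share is relative to all other messenger RNA, so fewer transcripts per cell, fewer cells with many of them, and more of other transcripts cannot be told apart.

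**Figure D2:**
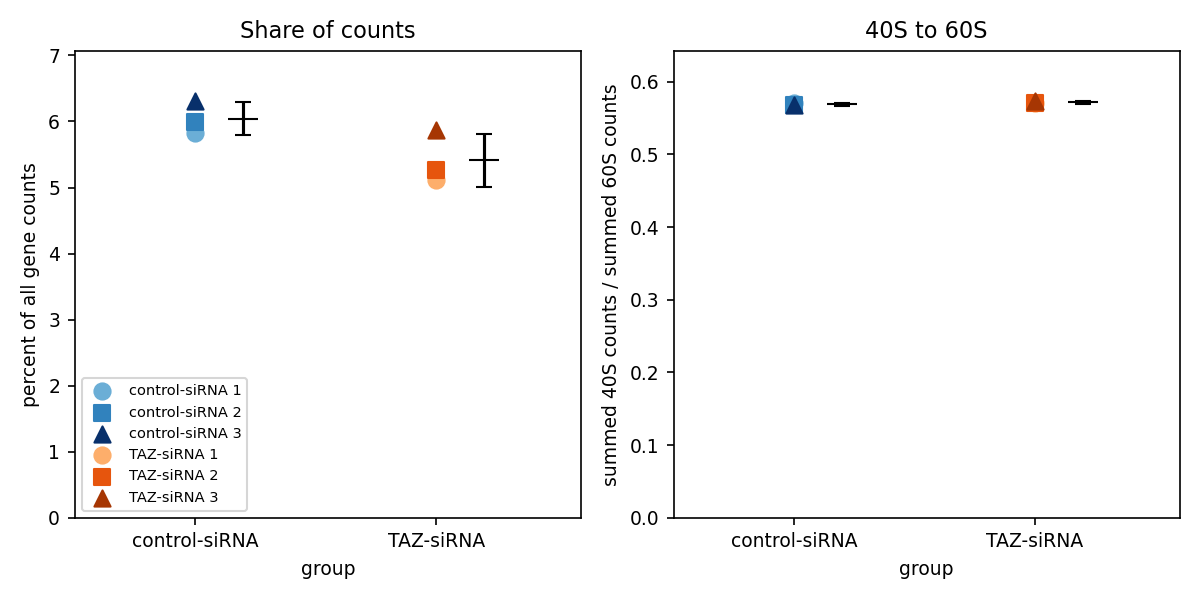
Left, counts of the 83 ribosomal protein genes as a percent of all gene counts; right, summed 40S counts divided by summed 60S and stalk counts; points are the 6 libraries, and the black lines give the group mean with its SD. The share is lower in TAZ-siRNA 1 and 2 than in any control library, with TAZ-siRNA 3 within the control range, while the ratio of the subunits is near 0.57 in all 6.

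Both subunits showed shifts of similar size. Of the 31 genes of the 40S subunit, 6 were called lower (19.4%) and the median log2 fold change was -0.17. Of the 43 genes of the 60S subunit, 6 were called lower (14%) and the median was -0.18. Of all genes tested, 10.2% were called lower. The ratio of summed 40S counts to summed 60S counts, stalk included, was 0.569 ± 0.00186 with control-siRNA and 0.571 ± 0.00197 with TAZ-siRNA (SD, n = 3), a difference of 0.00237 that was close to the spread between libraries.

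In the 60S subunit, RPL15, RPL3, RPL17, RPL10, RPL10A and RPL24 fell. RPL15 (chr3:23916545-23924631 of GRCh38), a core protein of the large subunit, was measured at 1260, 1296 and 1417 CPM with control-siRNA and at 1007, 991.5 and 1161 CPM with TAZ-siRNA. The lowest control value lay above the highest TAZ-siRNA value, and the log2 fold change was -0.33 ± 0.077 (SE; edgeR adjusted p = 0.012). RPL3 (chr22:39312882-39319623), whose protein reaches towards the centre where peptide bonds are made, stood at 1712, 1816 and 1974 CPM with control-siRNA and at 1415, 1455 and 1605 CPM with TAZ-siRNA. Its groups did not overlap, with a log2 fold change of -0.30 ± 0.074 (edgeR adjusted p = 0.017). RPL17 (chr18:49488481-49492465), which lines the exit of the peptide tunnel, had 417.3, 429.8 and 444.5 CPM with control-siRNA against 325.2, 338.9 and 388.3 CPM with TAZ-siRNA. The change of RPL17 was -0.30 ± 0.071 (edgeR adjusted p = 0.014), and 2 of the 3 TAZ-siRNA values lay far below the third.

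RPL10, whose protein joins the 60S subunit late in its assembly, had 936.1, 1001 and 1117 CPM with control-siRNA and 807.2, 803.4 and 929.2 CPM with TAZ-siRNA (log2 fold change -0.27, edgeR adjusted p = 0.041). The highest TAZ-siRNA value and the lowest control value of RPL10 were nearly equal. RPL10A had 615.6, 629.5 and 665.7 CPM against 493.8, 506.7 and 596.8 CPM (-0.26, edgeR adjusted p = 0.036). RPL24, which forms part of a bridge between the subunits, had 354.9, 360.6 and 397.9 CPM against 291.8, 294.6 and 350.4 CPM (-0.25, edgeR adjusted p = 0.046). In both genes TAZ-siRNA 3 came close to control-siRNA 1. The stalk gene RPLP0, whose protein anchors the stalk that recruits translation factors, had 1866, 1954 and 2050 CPM with control-siRNA and 1552, 1602 and 1793 CPM with TAZ-siRNA, a fall by 0.25 on the log2 scale (edgeR adjusted p = 0.033). Its partners RPLP1 and RPLP2 had log2 fold changes of -0.15 and -0.061 and were not called (edgeR adjusted p = 0.20 and 0.58), and the difference between the stalk genes was not tested.

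In the 40S subunit, the genes that fell included RPS9, RPS2, RPSA, RPS27A and RPS10. RPS9, a protein that helps to keep decoding accurate, had 500.6, 534.2 and 588.5 CPM with control-siRNA against 429.1, 425 and 500.1 CPM with TAZ-siRNA (-0.26, edgeR adjusted p = 0.042), so that TAZ-siRNA 3 and control-siRNA 1 were within 1 CPM of each other. RPS2, at the entry of the messenger RNA, had 1719, 1698 and 1864 CPM against 1359, 1412 and 1635 CPM (-0.26, edgeR adjusted p = 0.038). RPSA, which is also known as a laminin receptor, had 1192, 1246 and 1347 CPM against 1016, 1038 and 1155 CPM (-0.24, edgeR adjusted p = 0.037). In RPS2 and RPSA, every control value lay above every TAZ-siRNA value. RPS27A, made as a fusion with ubiquitin, changed by -0.23 (edgeR adjusted p = 0.045) and RPS10 by -0.22 (edgeR adjusted p = 0.048), and both lay just inside the threshold and lost the call once length was corrected. The groups did not overlap in either gene, with 852.4 to 928.7 CPM against 702 to 819.9 CPM for RPS27A and 637.1 to 709.1 CPM against 548.1 to 632.8 CPM for RPS10.

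Of the 5 genes with the highest level per length, RPS2 and RPLP0 fell and the others were not called. By mean TPM over the 6 libraries, RPS18 came first (5540), followed by RPL12 (4907), RPS2 (3771), RPL13A (3628) and RPLP0 (3562). TPM depends on the transcript lengths in the annotation, and RPL14, listed at 7095 bases, came out lowest of the canonical genes at 169.6. RPS18, whose protein lies in the head of the 40S subunit, had 5440, 5696 and 5972 TPM with control-siRNA and 5179, 5259 and 5695 TPM with TAZ-siRNA. RPL12, at the base of the stalk, had 5028, 5120 and 5247 TPM against 4469, 4632 and 4944 TPM. RPL13A, which is also known for a role in silencing of messenger RNAs in inflammation, had 3636, 3782 and 3966 TPM against 3354, 3437 and 3592 TPM. The values of RPS2, RPL13A and RPLP0 overlapped across the libraries, so their order is not fixed. In the fit to counts RPS18, RPL12 and RPL13A had log2 fold changes of -0.14, -0.19 and -0.19 and were not called (edgeR adjusted p = 0.26, 0.11 and 0.11).

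RPL5 and RPL11, which form a complex with the 5S ribosomal RNA and can bind the p53 regulator MDM2, were not called. RPL5 had 1563, 1613 and 1756 CPM with control-siRNA and 1419, 1413 and 1634 CPM with TAZ-siRNA (log2 fold change -0.14 ± 0.076, edgeR adjusted p = 0.21). RPL11 had 621.2, 665.9 and 696.9 CPM against 553.8, 578.8 and 645.8 CPM (-0.16 ± 0.072, edgeR adjusted p = 0.15). In both, TAZ-siRNA 3 lay within the control range. Among the members nearest to 0 were RPL13 (-0.042), RPLP2 (-0.061), RPS25 (-0.076) and RPL7L1 (-0.092), and these were picked by this order after their values were seen. An uncalled gene is not thereby shown to be unchanged, since its standard error was mostly near 0.077.

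Among the paralogs, RPL22L1 (chr3:170864875-170870195) had the largest change of all members. RPL22L1 is a near relative of RPL22 that can take its place in the ribosome. It was measured at 50.32, 51.13 and 46.7 CPM with control-siRNA and at 34.55, 34.07 and 35.92 CPM with TAZ-siRNA, so the groups were far apart and TAZ-siRNA 3 lay close to the other 2 libraries of its group. The log2 fold change was -0.50 ± 0.057 (SE; edgeR adjusted p = 0.00032), which left 70.53% of the control level. RPL22 stood at 335.3, 358.7 and 376.9 CPM against 307.8, 316.6 and 348.5 CPM, with a log2 fold change of -0.14 ± 0.067 (edgeR adjusted p = 0.16). Of the counts of the pair, RPL22L1 held 13.05, 12.48 and 11.03% with control-siRNA and 10.09, 9.715 and 9.343% with TAZ-siRNA (12.2% ± 1.04 and 9.72% ± 0.374, SD, n = 3), and the groups did not overlap. The transcript of RPL22L1 annotated as non-coding held 50.9% ± 0.932 of its counts with control-siRNA and 52.3% ± 1.33 with TAZ-siRNA, so the split within the gene changed little. RPL22L1 was also called when any 1 library was left out and after the correction for length (-0.46, edgeR adjusted p = 0.00017).

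The other paralogs did not pass the test. RPL39L, best known from the testis and from cancer cells, had 20.88, 20.13 and 19.52 CPM with control-siRNA and 16.68, 15.45 and 19.21 CPM with TAZ-siRNA (-0.24 ± 0.083, edgeR adjusted p = 0.065), beside -0.14 for RPL39. RPL26L1 had 25.77, 25.21 and 29.61 CPM against 21.71, 22.45 and 25.08 CPM (-0.22 ± 0.080, edgeR adjusted p = 0.077), beside -0.18 for RPL26. RPL7L1, whose protein is known from ribosome assembly, had 308.2, 306.4 and 325.2 CPM against 292.6, 283.3 and 305.7 CPM (-0.092 ± 0.055, edgeR adjusted p = 0.26), beside -0.19 for RPL7. RPL7L1 held 28.6% ± 0.493 of the counts of its pair with control-siRNA and 30.02% ± 1.14 with TAZ-siRNA, and these overlapped. RPL3L, a gene of heart and skeletal muscle, had 0, 2 and 0 counts with control-siRNA and 0, 0 and 2 with TAZ-siRNA, and RPL10L, a gene of the testis, had 0 in all 6. Both lay under the floor of 3 counts per library, which stands for 0.0418 to 0.0621 CPM and covers counting error only, so they were not tested. RPL22L1, RPL39L and RPL26L1 were also the lowest of the 81 genes per length, with mean TPM of 48.01, 56.46 and 72.59.

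**Figure D3:**
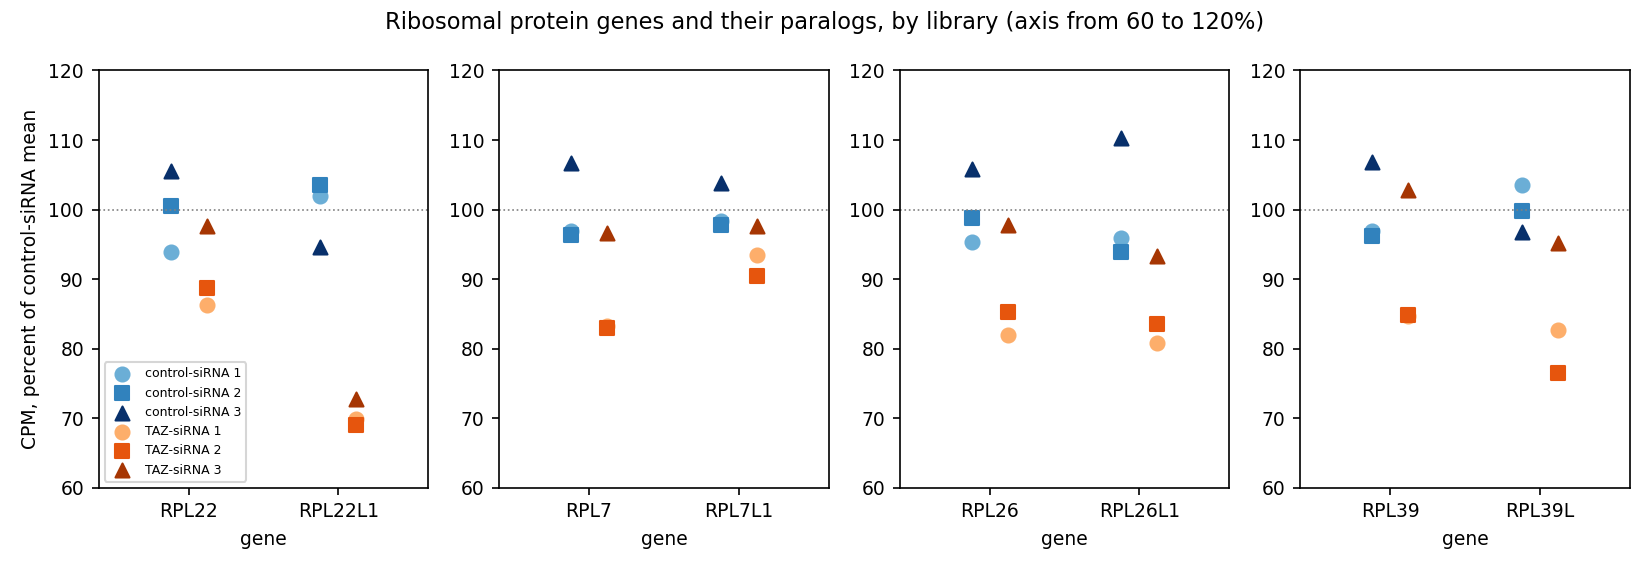
CPM of each of 4 ribosomal protein genes and its paralog in the 6 libraries, as percent of the mean of the 3 control-siRNA libraries (vertical axis from 60 to 120%, dotted line at 100%). RPL22L1 falls to about 70% in all 3 TAZ-siRNA libraries. TAZ-siRNA 3 lies above TAZ-siRNA 1 and 2 in every gene shown, by little in RPL22L1.

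Ribosomal protein genes are short, and the libraries differed by gene length. Among other protein-coding genes the median log2 fold change was -0.10 for transcripts under 1000 bases (642 genes), -0.077 for 1000 to 1500, -0.062 for 1500 to 2000, -0.016 for 2000 to 3000, 0.033 for 3000 to 5000 and 0.075 for over 5000 bases (3557 genes). The order of the libraries was the same as for the ribosomal protein genes. For genes under 1000 bases the medians relative to the mean of the libraries were 0.020, 0.026 and 0.12 with control-siRNA and -0.13, -0.091 and 0.071 with TAZ-siRNA. The 47 ribosomal protein genes under 1000 bases had a median of -0.17, and the 11 annotated at 2000 to 3000 bases had -0.16. Of the other protein-coding genes under 1000 bases 15.4% were called lower, close to the 17% of the ribosomal protein genes of that length.

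After a spline on gene length was fitted to each library, 10 of the 14 genes were still called lower and no other member was. That was 12.3% of the members tested, no more than the 13.4% of all genes called lower in that fit. Among the 10 were RPL22L1, RPL15, RPL10, RPL3, RPL17, RPS2, RPLP0, RPSA and RPL10A. The median of the 81 genes moved to -0.079, with 74 of them below 0. RPL15 kept -0.30 (edgeR adjusted p = 0.0035), RPL10 -0.23 (0.022) and RPL3 -0.21 (0.0070). The 4 genes that lost the call were RPS9 at -0.14, RPS27A at -0.12, RPL24 at -0.11 and RPS10 at -0.089 (edgeR adjusted p = 0.063, 0.053, 0.078 and 0.17). With GC content added to length, 11 genes were called lower (13.6% of the members tested), where 14.1% of all genes were, and the median was -0.063. The length-corrected medians of the libraries were 0.0020, 0.041 and 0.073 with control-siRNA and -0.062, -0.055 and 0.023 with TAZ-siRNA, so that TAZ-siRNA 3 still lay within the control range.

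**Figure D4:**
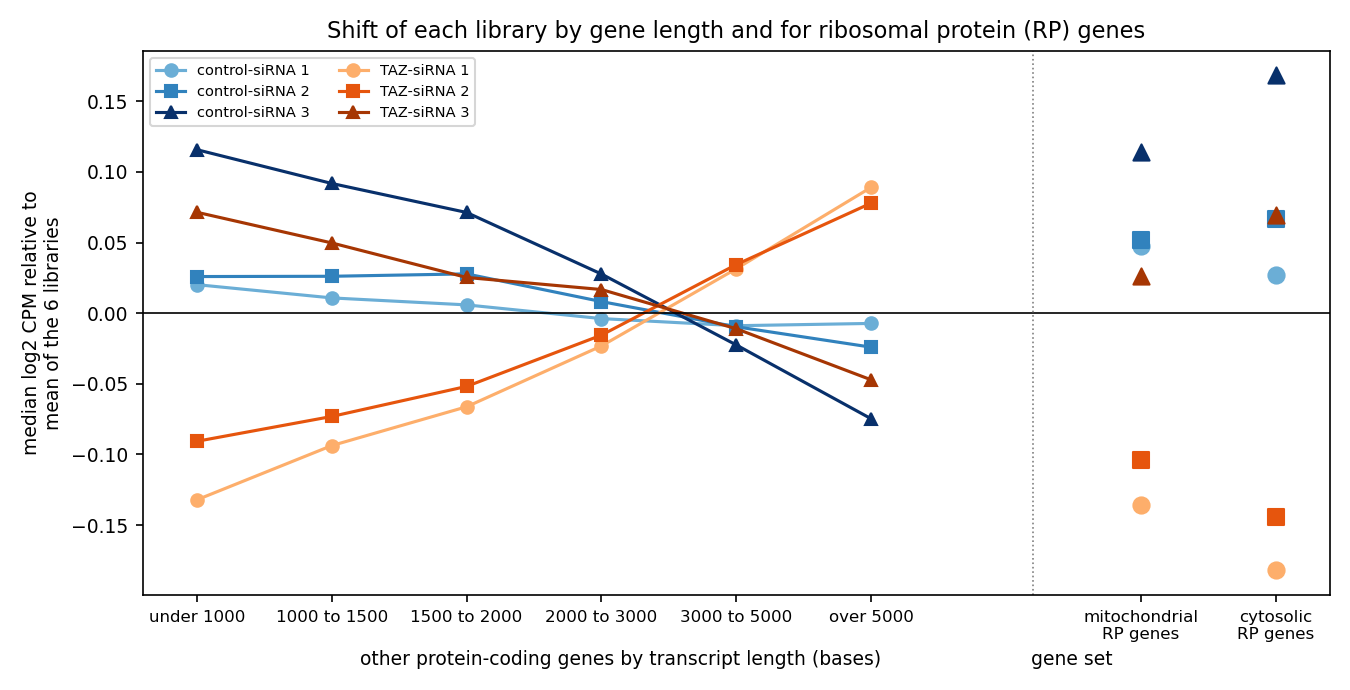
Median log2 CPM relative to the mean of the 6 libraries (vertical axis) for other protein-coding genes in 6 classes of transcript length (lines) and for mitochondrial and cytosolic ribosomal protein (RP) genes (points); each colour and marker is 1 library. TAZ-siRNA 1 and 2 are low for short genes and high for long ones, control-siRNA 3 and TAZ-siRNA 3 run the other way, and the cytosolic ribosomal protein genes spread from -0.18 to 0.17.

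The deposited table also splits each gene into transcripts. Of the members, 19 had 2 or more transcripts with at least 10% of the gene's counts each, and the share of the leading transcript did not overlap between the groups in 3 of them (RPL31, RPL37 and RPS24, of which RPL37 and RPS24 are named here after their values were seen). Over all 8208 genes tested with as many such transcripts, 12.5% did not overlap, against 3 of 19 here, so this count is near the background. In RPS24, known for alternative splicing near the end of its coding region, the 534-base transcript held 55.1, 53.5 and 53% with control-siRNA and 47.6, 48.9 and 51% with TAZ-siRNA (53.9% ± 1.09 and 49.1% ± 1.73, SD, n = 3). The 634-base transcript of RPS24 held 43.4, 44.6 and 45.3% against 50.3, 49.7 and 46.9%. The shift was small and in the same direction in all 3 libraries. In RPL31 the leading 1291-base transcript held 83, 83.2 and 84.4% against 81.3, 70.4 and 69.5%. In RPL37 the leading transcript, annotated as non-coding, held 66.8% ± 2.99 against 57.7% ± 3.30.

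In other genes the leading share differed more in some libraries, but the groups overlapped. The leading transcript of RPL11 held 85.5, 85 and 84.7% with control-siRNA and 84.7, 54.8 and 57% with TAZ-siRNA, and that of RPL19 held 59, 60.6 and 67.8% against 65.8, 88.6 and 67.7%. The low values of RPL11 came from TAZ-siRNA 2 and 3, and the highest value of RPL19 from TAZ-siRNA 2. In RPL34, chosen after its values were seen, the share ranged from 2.96 to 83.5% within the control-siRNA group alone, so the split of counts among its transcripts varied far more between replicates than between groups. No test was run on the shares. Gene-level CPM does not use this split, whereas TPM does through the transcript lengths, and in TPM RPL11 and RPL31 were 0.042 and 0.025 higher on the log2 scale with TAZ-siRNA, neither of them called by limma.

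**Figure D5:**
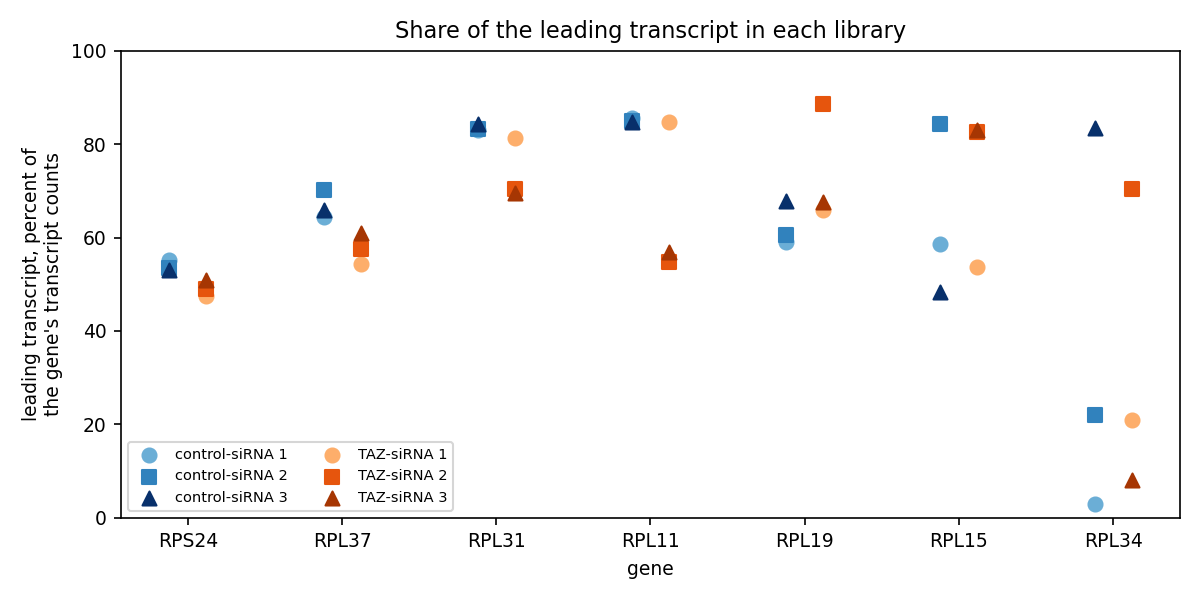
Percent of a gene's transcript counts held by its leading transcript (vertical axis, 0 to 100%) in the 6 libraries for 7 ribosomal protein genes, of which RPS24, RPL37, RPL15 and RPL34 were picked after their values were seen. The groups separate narrowly in RPS24, RPL37 and RPL31, and in RPL34 the control libraries alone span 2.96 to 83.5%.

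Near-identical copies limit these values. The table holds 1441 ribosomal protein pseudogenes, of which 824 had a count in some library, and their counts came to between 2.23 and 2.36% of the counts of the 83 genes. That share moved little between libraries, but how reads were divided between a gene and its copies cannot be seen in the table. Read-through transcripts share exons with 3 members. RPL17-C18orf32 had 1605, 1477 and 1234 counts with control-siRNA and 2154, 1465 and 2304 with TAZ-siRNA, RPS10-NUDT3 had 330, 381 and 368 against 279, 172 and 243, and RPL36A-HNRNPH2 had 317, 271 and 610 against 135, 139 and 258. How the reads shared by such pairs were assigned was not tested.

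The ribosomal protein genes outside the rule had values like those of the uncalled members. FAU had a log2 fold change of -0.20, RPS27L -0.12 and RPL36AL -0.041, and they did not pass the test with edgeR or with DESeq2, though FAU had an unadjusted p under 0.05.

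Other genes of the translation machinery were also among those that fell. Of all genes tested, 10.2% were called lower in the main fit and 11% with DESeq2. After the length correction 13.4% were, and without TAZ-siRNA 3, 16.1%. These shares are the background for each list below. How the lists rank against the ribosomal protein genes depends on the libraries used. Without TAZ-siRNA 3, 96.3% of the ribosomal protein genes were called lower, against 85.7% of the translation factors and 85.5% of the biogenesis genes. In the same fit 50% of the RNA polymerase I genes and 59% of the mitochondrial ribosomal protein genes were called lower. Of 35 translation factors and other genes listed for TOP messenger RNAs, 14 were lower and 0 higher (40% lower, where 10.2% of all genes tested were), with a median log2 fold change of -0.19. PABPC4, a poly(A)-binding protein, fell from 172.7, 178.1 and 178.4 CPM to 131.4, 130.7 and 144.1 CPM (-0.38, edgeR adjusted p = 0.00078). EIF3C and EIF3K, subunits of an initiation factor, fell by 0.35 and 0.30 on the log2 scale (edgeR adjusted p = 0.0020 and 0.0057). In all 3 genes the groups did not overlap. DESeq2 called 19 of the 35 lower and 0 higher. Without TAZ-siRNA 3, 30 of the 35 were lower, and after the length correction 17 were.

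Genes for assembly of the ribosome were among them too. Of 62 genes for ribosome biogenesis, 37 were lower (59.7%) and 0 higher, with a median of -0.23, and DESeq2 called 38 lower and 0 higher. NOL6, a nucleolar protein of the small subunit precursor, had 117.7, 122.6 and 119.1 CPM with control-siRNA and 86.99, 86.93 and 86.93 CPM with TAZ-siRNA (-0.46 ± 0.044, edgeR adjusted p = 0.00014). The replicates of NOL6 were tight in both groups, TAZ-siRNA 3 included. EBNA1BP2, an assembly factor of the large subunit, fell by 0.43 and RRP9, a component of the U3 small nucleolar particle, by 0.40 (edgeR adjusted p = 0.0070 and 0.0046). After the length correction 41 of the 62 were lower with a median of -0.23, and without TAZ-siRNA 3, 53 were. The median of these genes stayed where it was under the length correction, while that of the ribosomal protein genes went from -0.17 to -0.079. The biogenesis genes are longer, with a median length of 2531 bases against 856 for the ribosomal protein genes. Other protein-coding genes of 2000 to 3000 bases had a median of only -0.016 before the correction. The difference between the lists was not tested.

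Of 16 genes for RNA polymerase I and its control, which supply ribosomal RNA, 5 were lower and 0 higher by edgeR and by DESeq2 alike, with a median of -0.13. POLR1G and POLR1E, subunits of the polymerase, fell by 0.53 and 0.48 on the log2 scale (edgeR adjusted p = 0.0045 and 0.00021). POLR1E had 97.38, 94.95 and 93.77 CPM against 67.31, 65.53 and 71.92 CPM. MYC, a transcription factor that acts on ribosomal genes of all kinds, had 137.8, 128.6 and 132 CPM with control-siRNA and 104.4, 99.9 and 119.5 CPM with TAZ-siRNA (-0.30, edgeR adjusted p = 0.0097). The MYC values did not overlap, and TAZ-siRNA 3 was again the highest of its group. Without TAZ-siRNA 3, 8 of the 16 were lower and 1 was higher.

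Of 18 regulators of the translation of TOP messenger RNAs, 4 were lower (22.2%, where 10.2% of all genes were) and 2 higher, which is near the 11.9% of all genes called higher. The repressors of cap-dependent initiation went in opposite directions: EIF4EBP1 had 94.53, 98.39 and 105.9 CPM with control-siRNA and 66.63, 63.87 and 87.48 CPM with TAZ-siRNA (-0.45, edgeR adjusted p = 0.022), whereas EIF4EBP2 rose from 76.62, 77.13 and 74.17 CPM to 108.5, 108.7 and 97.06 CPM (0.46, edgeR adjusted p = 0.00042). In each of the genes the groups did not overlap. MLST8, a subunit of the mTOR complexes, fell by 0.39 (edgeR adjusted p = 0.0024) and LARP1 by 0.19 (edgeR adjusted p = 0.024). TSC1, an inhibitor of mTORC1, was 0.22 higher (edgeR adjusted p = 0.049), with overlapping groups, and it was not called without the filter on low counts or after the length correction.

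The mitochondrial ribosomal protein genes, which are also short but far less abundant, were the set most like the cytosolic ones. Of 78 such genes 23 were lower (29.5%) and 0 higher, with a median log2 fold change of -0.16, and DESeq2 called 26 lower and 0 higher. Their libraries were ordered in nearly the same way, with medians of 0.047, 0.052 and 0.11 with control-siRNA and -0.14, -0.10 and 0.026 with TAZ-siRNA. TAZ-siRNA 3 lay below every control library for this set, as it did not for the cytosolic genes. Without it 46 of the 78 were lower, and after the length correction 16 were, with a median of -0.073 beside -0.079 for the cytosolic genes.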

How the data were processed

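RNA from 3 control-siRNA and 3 TAZ-siRNA preparations of MDA-MB-231 cells was made into stranded mRNA libraries. Reads had been trimmed by the authors, aligned to GRCh38 by HISAT2, and assigned to RefSeq genes and transcripts by StringTie. The submitters' processing notes also name Bowtie 0.12.2 and, beside GRCh38, the mouse build mm8, whose roles are not given in the sources used here, nor is the use of strand in counting. The deposited estimated counts are whole numbers that the authors derived for each gene and transcript, and they were used as they stand. The authors' FPKM values are scaled for length and depth, and the deposited TPM values for length and then to a common total. No test of the transcript shares was made.

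The main comparison used edgeR 4.0.16 in R 4.3.3 with TMM normalization, filterByExpr (minimum count 10), a robust quasi-likelihood fit and Benjamini-Hochberg adjustment over the 16966 genes tested, at an adjusted p under 0.05. Error bars and ± after a log2 fold change are standard errors. The biological coefficient of variation was 8.04%. Total counts of 48307548 to 71749634 per library set the floor of 3 counts at 0.0418 to 0.0621 CPM. The 3 preparations per group are treated as separate samples, as the methods describe them. No pair of libraries in a group was a duplicate (chi-square over its degrees of freedom 6.79 to 41.1). The length and GC corrections used, for each library, a spline of 5 degrees of freedom, with GC content from a GENCODE transcript set. Both values were available for 89.7% of genes tested and 100% of members. Alternatives were DESeq2 1.42.0, upper-quartile factors, TMM factors without the ribosomal protein genes, other filters on low counts, a replicate block, limma 3.58.1 on log2(FPKM + 1), log2(FPKM + 0.1) and log2(TPM + 1), an adjusted p under 0.01, other denominators for the share of counts, and leaving out each library.

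The genes, lists and tests were chosen with earlier results of these data known. Named genes were the members called, the 5 with the highest and the 3 tested with the lowest mean TPM, the paralog pairs with RPL5 and RPL11, the 3 members whose leading transcript share differed most, up to 3 rises and 3 falls of each list, and WWTR1. Some of these are not reported here. The scripts were tested on simulated data.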

Additional observations from a re-analysis of the deposited data

How the results depend on the processing

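No ribosomal protein gene was called higher in any alternative run, and the median log2 fold change of the members stayed below 0, from -0.25 to -0.063. How many were called lower, 14 as reported, varied: 28 with DESeq2, 1 at an adjusted p under 0.01, and 1 to 78 when a library was left out, the highest without TAZ-siRNA replicate 3. Of all genes tested, 11% were called lower with DESeq2 and 4.84 to 16.1% when a library was left out. Counts for the other lists here are calls in either direction. Leaving out a library gave 3 to 30 translation factors, 19 to 53 biogenesis genes, 4 to 9 RNA polymerase I genes, 2 to 8 regulators and 6 to 46 mitochondrial ribosomal protein genes called. The highest counts came without TAZ-siRNA 3, where 2826 of all 17585 genes tested were lower and 3102 higher. Without control-siRNA 2, 835 of 17258 were lower and 1102 higher. An adjusted p under 0.01 left 3 translation factors, 19 biogenesis genes, 2 regulators and 6 mitochondrial ribosomal protein genes, with fewer genes passing by construction. The share of all genes passing at 0.01 is not given here, so the counts at this threshold have no background beside them. With limma on TPM, 3 regulators and 11 mitochondrial ribosomal protein genes were called. That fit called 943 of all 16966 genes lower (5.56%) and 1600 higher. For the members' share, TPM in place of counts gave a difference of -1.17 points. Direction turned in genes that were not called: RPL39 went to 0.0053 with the length correction, to 0.028 with GC content added and to 0.0046 with the replicate block and length, RPL5 to 0.0050 with GC content and length, and RPL11 and RPL31 to 0.042 and 0.025 with TPM. The cause of these changes was not tested.

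Correlations of deviations between same-numbered libraries were small (-0.017, 0.0086 and 0.070). Not every library correlated best with its own number, though control-siRNA 3 and TAZ-siRNA 3 did. For the ribosomal protein genes, library 3 was also the highest in both groups (medians 0.17 and 0.069 relative to the mean of the libraries). With 3 libraries per group, these values cannot decide whether the numbers pair the samples. With the replicate block 65 members, 26 translation factors, 8 RNA polymerase I genes and 37 mitochondrial ribosomal protein genes were called, and with the replicate block and the length correction 24 members were. The members called were all lower, where 14.9% of all genes tested were lower with the block and 15.1% with block and length. Over all 16966 genes the block called 2521 lower and 2601 higher, against 1737 and 2012 in the main fit. Depth was not the limit for the abundant members, whereas RPL3L and RPL10L could not be compared at this depth.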
